A study of Homo sapiens with 8 samples.

Results

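The 22 peaks described here lay at promoters of the mitochondrial protein import machinery, out of 15412 peaks that the anti-PML::RARA antibody gave by Cut&Run in induced U937-PR9 cells. They were found by gene symbol alone, as every peak whose label begins with TIMM or TOMM or is PAM16, GRPEL1, GRPEL2, SAMM50, MTX1, MTX2, PMPCA, PMPCB, CHCHD4, GFER or OXA1L. These names cover 37 protein-coding genes. No peak value entered this rule, but the names were chosen with earlier results of these data known. The other 7147 peaks that carry a gene symbol, called other labelled peaks here, serve as the comparison.

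The monocytic line U937-PR9 carries PML::RARA as a transgene under a zinc-inducible promoter, and the fusion protein is the driver of acute promyelocytic leukemia. Cells were induced with 100 μM ZnSO4 for 5 h or given water, and Cut&Run, in which an antibody-bound nuclease releases DNA around a chromatin protein, was run with an anti-PML::RARA and an anti-RARA antibody. Each condition and antibody had 2 replicates, 8 libraries in all, and the list analysed here is that of the anti-PML::RARA antibody in zinc-treated cells. It gives 1 height (the largest signal within the peak), 1 width and 1 total signal per peak for both replicates together, so the spread between replicates is unknown, and zinc treatment and PML::RARA expression cannot be told apart. Depth per library is unknown, and intervals below cover the counting or ranking of peaks only.

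Nearly all mitochondrial proteins are made in the cytosol and are imported. The TOM complex of the outer membrane is the common entry gate. From it, SAM inserts beta-barrel proteins, the small TIM chaperones carry hydrophobic proteins across the intermembrane space to TIM22, TIM23 with its Hsp70-driven motor pulls proteins with a presequence into the matrix, and the CHCHD4 relay folds small proteins through disulfide bonds. The nuclear genes of mitochondrial proteins are classical targets of the transcription factor NRF1, whose site is a GC-rich palindrome, and of ETS factors of the GABP type, while retinoic acid receptors bind repeats of the core AGGTCA.

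The sequences that carry the description are shown first, all from hg19 (GRCh37) and in the direction of the gene. The highest import gene peak was that of TIMM44, and the part of its apex window that lies outside annotated exons (chr19:8008624-8008851, minus strand) is given with the RARE core AGGTCA and the SP-type box GGGCGG in capitals, in either orientation.
TIMM44: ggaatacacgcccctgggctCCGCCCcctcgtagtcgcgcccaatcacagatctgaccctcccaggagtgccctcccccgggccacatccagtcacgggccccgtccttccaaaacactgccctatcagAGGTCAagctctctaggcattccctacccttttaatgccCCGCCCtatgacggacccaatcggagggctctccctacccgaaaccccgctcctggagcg

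The widest import gene peak was that of CHCHD4, likewise shown over the part of its window outside annotated exons (chr3:14166371-14166514, minus strand) with an NRF1-type match in capitals.
CHCHD4: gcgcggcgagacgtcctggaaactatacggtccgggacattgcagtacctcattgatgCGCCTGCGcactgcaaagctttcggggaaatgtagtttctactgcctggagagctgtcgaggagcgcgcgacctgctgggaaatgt

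NRF1-type letters, CGCANGCG in either orientation, lay within the 300 bp around the apex in 12 of the 22 peaks. The match nearest to the apex in each of these is shown in capitals with its flanks, because this string gave the largest gap, in percentage points, between the import and the other labelled peaks among those searched. TIMM8B and TIMM9 hold the strict palindrome CGCATGCG in the match shown, and TOMM7 and CHCHD4 hold it in a match further from the apex.
TOMM40 (chr19:45394281-45394306, plus strand): gccaataggCGCAGGCGctgcgagcc
CHCHD4 (chr3:14166440-14166465, minus strand): tcattgatgCGCCTGCGcactgcaaa
PAM16 (chr16:4401329-4401354, minus strand): gccgtatcgCGCACGCGctctctgcg
TIMM13 (chr19:2427551-2427576, minus strand): acgagtcggCGCACGCGgcctcggtc
SAMM50 (chr22:44351187-44351212, plus strand): aacgctcttCGCTTGCGcagtcagaa
GRPEL2 (chr5:148725061-148725086, plus strand): cagcaagtgCGCGTGCGctgcctctc
TIMM9 (chr14:58894362-58894387, minus strand): gacacaacaCGCATGCGcgccaagaa
TIMM50 (chr19:39971340-39971365, plus strand): aagcaaacgCGCCTGCGgcaatccgc
TIMM8B (chr11:111957479-111957504, minus strand): cacccgtcgCGCATGCGcaaacacag
TOMM7 (chr7:22862465-22862490, minus strand): cgtgtgtggCGCCTGCGcacctcctt
OXA1L (chr14:23235868-23235893, plus strand): ttcttactgCGCAGGCGcaaaagcaa
TOMM34 (chr20:43589035-43589060, minus strand): cgccgccggCGCTTGCGcccggaagg

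The RARE core AGGTCA, in capitals in either orientation, lay in the window of 6 peaks. They are shown because this is the core of the element through which the RARA part of the fusion binds DNA.
TIMM44 (chr19:8008707-8008732, minus strand): gccctatcagAGGTCAagctctctag
CHCHD4 (chr3:14166230-14166255, minus strand): gaggagagggAGGTCAcggcgtaaag
PAM16 (chr16:4401305-4401330, minus strand): cggctttcctTGACCTctgacccgcc
SAMM50 (chr22:44351347-44351372, plus strand): ggagttgcctTGACCTgcagctccgc
TIMM9 (chr14:58894408-58894433, minus strand): agttgcccgcAGGTCAacacccactt
TIMM8B (chr11:111957598-111957623, minus strand): tgagggctcaAGGTCAtccaccaacc

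A pair of such cores, spelled AGGTCA or as the variants GGGTCA, then AGTTCA, and also GGTTCA, with 0 to 8 bases between, was found at PAM16 (chr16:4401300-4401328, minus strand), as a direct repeat with a spacing of 1 base, and at OXA1L (chr14:23236004-23236033, plus strand), as a direct repeat with a spacing of 2. The search for pairs was added after the data were seen.
PAM16: gctttcctTGACCTcTGACCCgccgacca
OXA1L: tgctgcccTGACCCagTGAACCaggcccca

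ETS-type letters, CCGGAAG in either orientation, lay in 6 windows, and the match nearest to the apex is shown for each.
TIMM13 (chr19:2427578-2427603, minus strand): ggcggcccgCTTCCGGcgcagttagt
TIMMDC1 (chr3:119217308-119217333, plus strand): ccgccctcaaCCGGAAGtcttttggg
GRPEL2 (chr5:148724905-148724930, plus strand): acactgagagCCGGAAGtgttgcctt
TIMM8B (chr11:111957510-111957535, minus strand): ctgggtgaaCCGGAAGtcgagaggcg
OXA1L (chr14:23235889-23235914, plus strand): agcaagtcctCTTCCGGgcaaaatgg
TOMM34 (chr20:43589026-43589051, minus strand): cgcttgcgcCCGGAAGgtgtgccgca

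Of the 37 import genes, 22 had a promoter peak under their own symbol, a share of 59.5% (Wilson 95% interval 43.5 to 73.7%). Among the other 20112 protein-coding genes this share was 29.8%. Each of the 22 genes had exactly 1 such peak. Of the other labelled genes 8.45% had more than 1, and a count of 0 in 22 allows a share of up to 13.6%. The label undercounted the import genes. At 9 more, a peak had its apex within 1 kb of a start site of the gene but carried the symbol of a neighbour or none, which brought the number to 31 of 37, or 83.8% (68.9 to 92.3%). The same count gave 39.1% of the other protein-coding genes. The 6 genes without a peak at the start were TOMM20L, MTX2, TIMM23, TIMM23B, PMPCA and PMPCB. Of these 6 genes, 0 were overlapped by a peak or had any in the 10 kb on either side. How often this holds for other genes without a peak at the start is not given here.

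**Figure D1:**
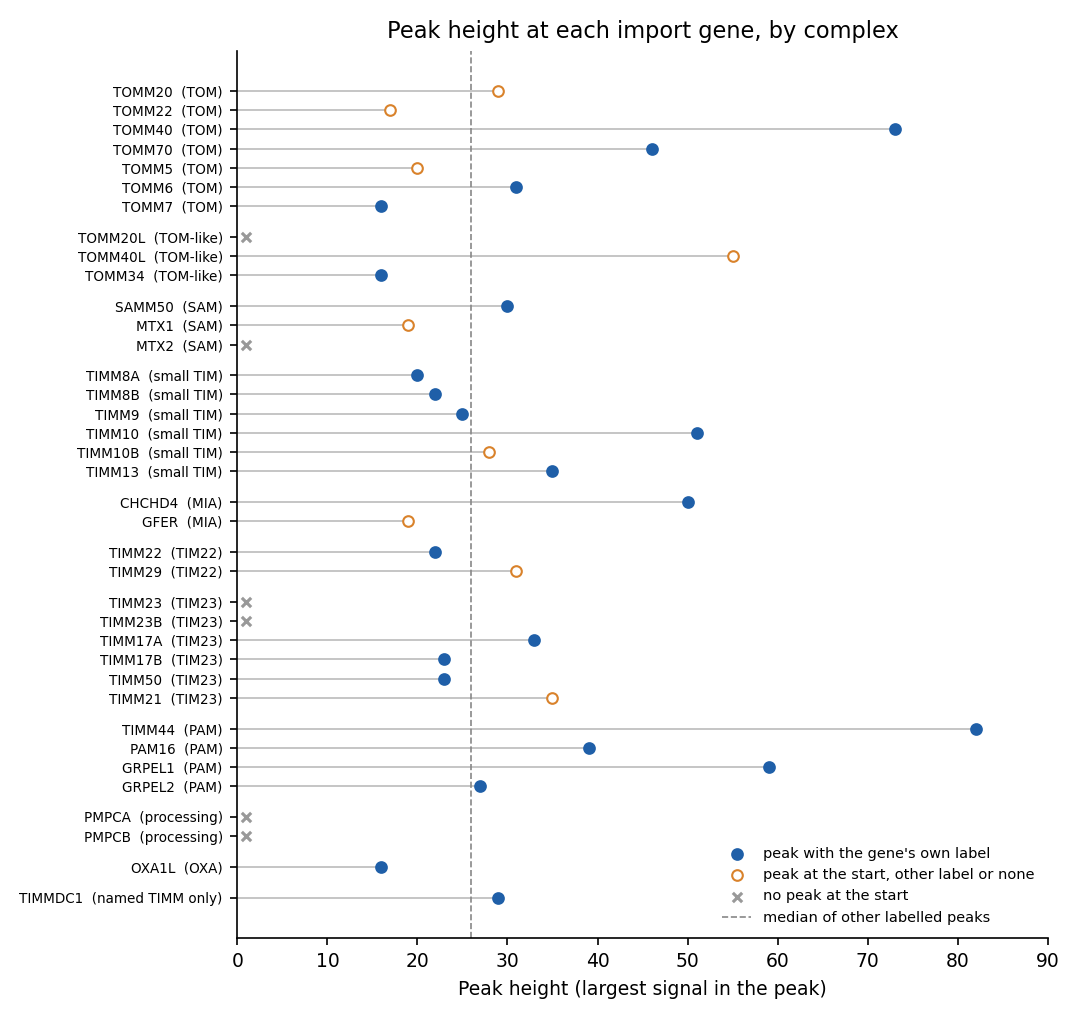
Peak height (largest signal in the peak) at each of the 37 import genes, grouped by complex. Filled points are peaks with the gene's own label, open points are peaks at a start site under another label or none, crosses drawn at the axis mark the 6 genes without a peak at the start and are not values, and the dashed line is the median of the other labelled peaks, 26. The import motor (PAM) is the one group of more than 2 genes in which every gene has its own label and lies above that line. Of 6 motor and chaperone partners outside these genes, 3 had their own label and 1 lay under another. The other 2, DNAJC15 and DNAJC19, had no peak at the start.

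By height, the 22 import gene peaks ranged from 16 to 82 with a median of 29.5 (order-statistic 95% interval 22 to 46), and the other labelled peaks had a median of 26 with quartiles of 20 and 35. The difference of the medians was 0.18 on the log2 scale, or 1.13-fold, and the interval of the import median, 0.846 to 1.77 times the median of the other labelled peaks, includes no difference. At or above the upper quartile lay 8 of the 22 import peaks, or 36.4% (19.7 to 57.0%), beside 25.4% of the other labelled peaks. By width the import peaks lay on the narrow side. Their median was 926.5 bp (608 to 1299 bp) and that of the other labelled peaks 1108 bp, a difference of -0.26 on the log2 scale, and here too the interval includes no difference. At or below the lower quartile of width, 770 bp, lay 8 of the 22, or 36.4%, beside 25% of the other labelled peaks. No test was made of either difference, since the peaks are not replicates.

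Height and width went together closely among the import genes. Spearman's rho between them was 0.82 over the 22 peaks and 0.45 over the 7147 other labelled peaks, as a description only, since all points come from the same list. Of the 8 narrowest import peaks just counted, 7 were at or below the median height of the other labelled peaks. At the other end, TIMM44, TOMM40, GRPEL1, TIMM10, CHCHD4 and TOMM70 lay at or above a height of 44, the 90th percentile of the other labelled peaks. All 6 were wider than 1108 bp. The matching shares of the other labelled peaks are not given here, and among those peaks height also rose with width.

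**Figure D2:**
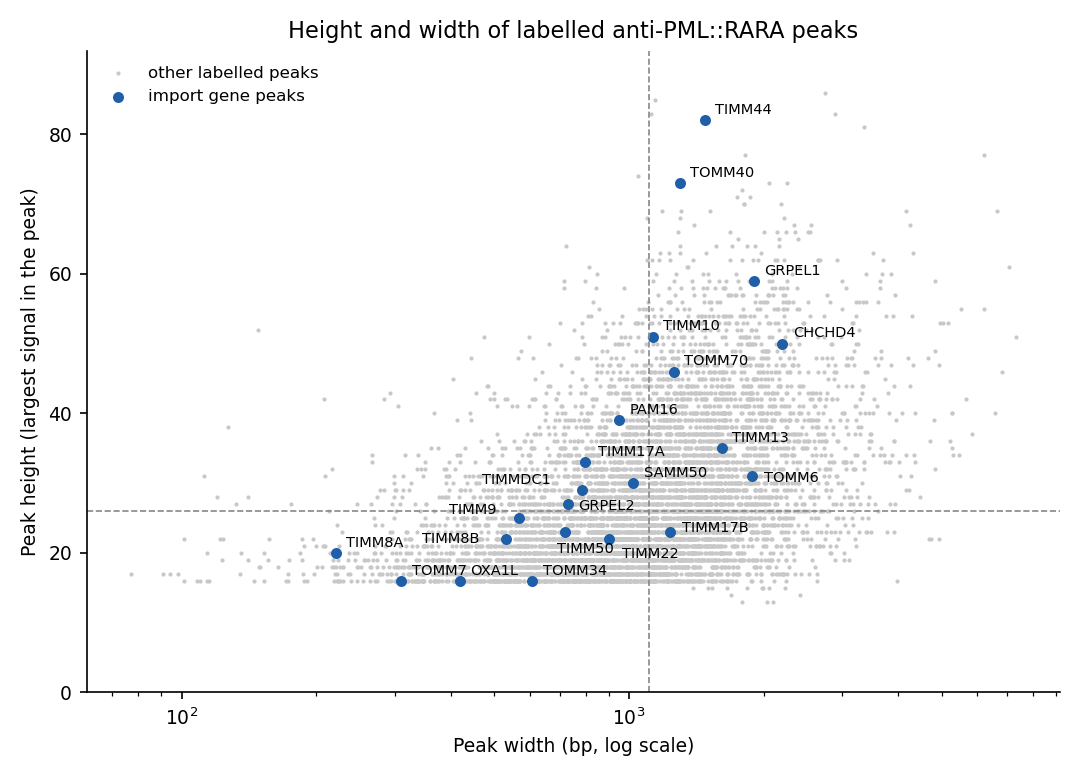
Height against width (log scale) of the 22 import gene peaks, in blue and named, and of the 7147 other labelled peaks, in grey, with dashed lines at the medians of the latter (26 and 1108 bp). The import peaks run from TIMM8A, TOMM7 and OXA1L at the lower left to GRPEL1, TOMM40 and TIMM44 at the upper right.

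The import motor included the highest peak of the set, that of TIMM44. All 4 of its genes in the list had a labelled peak, with heights of 27 to 82 and a median of 49. TIMM44 (ENSG00000104980), the tether that holds mitochondrial Hsp70 at the inner membrane channel, had its peak at 8007960 to 8009438 of chromosome 19 and reached a height of 82, exceeded by 6 of the 15412 peaks of the list. Its width of 1479 bp was greater than that of 71.9% of the other labelled peaks, and the largest signal was 221 bp upstream of the start. GRPEL1 (ENSG00000109519), the nucleotide exchange factor of mitochondrial Hsp70, had its peak at 7068935 to 7070833 of chromosome 4, 59 high and 1899 bp wide, higher than 98.5% and wider than 86.4% of the other labelled peaks. Its paralog GRPEL2 was 27 high and 731 bp wide, close to the middle of the other labelled peaks in height. PAM16, which regulates the J-protein of the motor, had a height of 39 (chromosome 16, 4400667 to 4401616), with the direct repeat shown above 47 bp from its apex.

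At the TOM complex, all 7 subunits had a peak at the start but only 4 under their own label. The peak of TOMM40 (ENSG00000130204), the channel itself, reached 73 (chromosome 19, 45393414 to 45394712), the second highest of the set. It was also the densest. Its mean signal of 32.0 per bp was higher than that of nearly all other labelled peaks (99.99%), although its width of 1299 bp exceeded only 62.2% of them, and 1097 bp of it lay upstream of the start site of the canonical transcript and 201 bp downstream. The receptor TOMM70 was 46 high and 1260 bp wide, with the apex 333 bp upstream of its own start site and 110 bp from that of LNP1 on the opposite strand. Of the small subunits, TOMM6 was 31 high and 1882 bp wide, and TOMM7 was 16 high and 310 bp wide. The peaks of the remaining subunits carried another label or none. The receptor TOMM20 lay under a peak labelled SNORA14B of height 29, with the apex 28 bp from its start. Unlabelled peaks covered the start sites of TOMM22 (height 17) and TOMM5 (height 20).

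Heights within the TOM complex thus spanned 16 to 73, from near the floor of the list, 13, to the highest 1% of labelled peaks. Among the relatives of its subunits, TOMM34, a cytosolic cochaperone, had a labelled peak of height 16 and TOMM20L had none. TOMM40L, the paralog of TOMM40, had a peak of height 55, 1127 bp wide, at its start site, labelled APOA2, with the apex 111 bp upstream of TOMM40L.

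In the intermembrane space, TIMM10 and CHCHD4 stood above the others. TIMM10, a subunit of the hexameric carrier chaperone, reached 51 (chromosome 11, 57297567 to 57298697) over a width of 1131 bp. Its partner subunit TIMM9 reached 25 over 569 bp, with the apex 189 bp upstream of TIMM9 and 1 bp from a start site of KIAA0586 on the other strand. TIMM13 had a height of 35, and its partner TIMM8A, whose loss causes a deafness-dystonia syndrome, had the narrowest peak of the set, 221 bp wide and 20 high. TIMM8B had a height of 22 over 530 bp, and its apex lay 19 bp from its own start site and 49 bp from that of SDHD, which encodes a subunit of respiratory complex II. The start of TIMM10B lay under a peak labelled ARFIP2 with a height of 28.

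CHCHD4 (ENSG00000163528), the oxidoreductase of the disulfide relay, had the widest peak of the set, 2201 bp on chromosome 3 from 14165555 to 14167755. It was 50 high, with the apex 8 bp upstream of the start. This was wider than 92% and higher than 94.6% of the other labelled peaks. GFER, the sulfhydryl oxidase that recharges CHCHD4, had no label of its own. A peak labelled NOXO1 19 high and 1468 bp wide had its apex 183 bp upstream of GFER.

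The peaks at inner membrane translocase genes had heights of 22 to 35. At TIM23, the presequence translocase, TIMM17A had a height of 33, its paralog TIMM17B one of 23, and the receptor subunit TIMM50 one of 23. TIMM21 lay under a peak labelled FBXO15 with a height of 35, whose apex was 581 bp from its start site. TIMM23, the channel-forming subunit, and its near-identical copy TIMM23B had no peak, the nearest apex being 47.6 kb and 194 kb away. Reads from these copies can align to either, and how such reads were treated is not given in the sources used here, so their lack of a peak is uncertain. At TIM22, the carrier translocase, TIMM22 had a height of 22 and TIMM29 lay under a peak labelled YIPF2 with a height of 31.

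The remaining genes serve insertion into the membranes and presequence removal. SAMM50, the core of the beta-barrel insertion machinery, was 30 high and 1023 bp wide, its partner MTX1 lay under a peak labelled THBS3 with a height of 19, and MTX2 had no peak within 153 kb of the gene. OXA1L, the insertase of the inner membrane, had a height of 16 over 419 bp, with the apex 3 bp from its start site. PMPCA and PMPCB, the subunits of the peptidase that removes presequences, both lacked a peak, and the nearest apex was 37.96 kb and 33.89 kb from their start sites. TIMMDC1, which shares the name but serves complex I assembly, had a height of 29 over 786 bp.

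The import peaks lay across their start sites. In all 22, the peak covered the start site of the canonical transcript, as it did in 81.3% of the other labelled peaks that could be placed, and it reached a median of 451.5 bp upstream and 451 bp downstream of it. The other labelled peaks that covered the start reached a median of 533 bp upstream and 593 bp downstream. The apex was a median of 89.5 bp from the nearest start site of the gene, beside 102 bp for the other labelled peaks, and lay within 100 bp of it in 13 of 22, or 59.1% (38.7 to 76.7%), beside 49.5%. In 21 of the 22 the apex was upstream of that nearest start site, beside 75.4% of the other labelled peaks. TIMM17B was the exception, at 2 bp downstream. The nearest start site can be that of a transcript other than the canonical one. Relative to the canonical transcript, the apex of TIMM17B was upstream and that of TIMM8A lay in the 5' UTR.

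**Figure D3:**
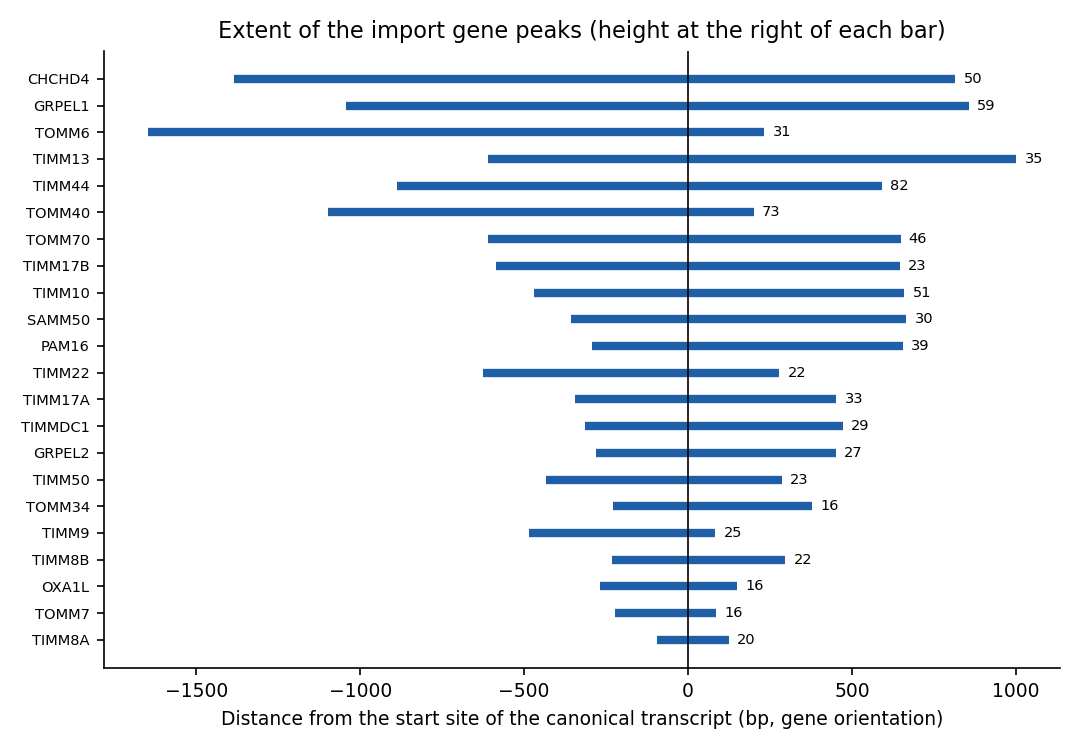
Extent of the 22 import gene peaks around the start site of the canonical transcript (line at 0, distances in bp in the direction of the gene), ordered by width, with the peak height at the right of each bar. Every bar crosses the line. TOMM6 and TOMM40 reach mostly upstream, and TIMM13 mostly downstream.

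Shared promoters were part of this arrangement. A protein-coding start site on the opposite strand lay within 1 kb of the apex in 6 of the 22 peaks, or 27.3% (13.2 to 48.2%), beside 16.7% of the other labelled peaks. The divergent neighbours were LNP1 at TOMM70, FRS3 at TOMM6, SDHD at TIMM8B, KIAA0586 at TIMM9, PQBP1 at TIMM17B and TMEM43 at CHCHD4. For these the list does not say which of the genes a peak belongs to. Away from the start sites, 4 of the 22 genes had a second peak that overlapped the gene or lay at most 10 kb away. The highest of these was a peak labelled SNAPC2 near TIMM44, with a height of 37. The matching share of the other labelled genes is not given here, so this count is a description only. On chromosome 19 lay 4 of the 22 peaks, or 18.2% (7.31 to 38.5%), beside 7.78% of the other labelled peaks, which this interval includes. The share of all import genes on that chromosome was not set beside it. These 4 import peaks had a median height of 54, beside 30 for the other labelled peaks of that chromosome. TIMM44 and TOMM40 were high, and TIMM13 and TIMM50 were at 35 and 23.

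Short sequences around the apex differed most for NRF1. Of 8 letter strings searched on both strands in 300 bp, CGCANGCG occurred in 12 of 22 import peaks, or 54.5% (34.7 to 73.1%), beside 17.7% of the other labelled peaks, and its strict form CGCATGCG, which it includes, in 4, or 18.2% (7.31 to 38.5%), beside 3.51%. Nearest to the apex were the matches of OXA1L, TOMM7 and TIMM8B, at 0, 2 and 7 bp. The RARE core AGGTCA occurred in 6, or 27.3% (13.2 to 48.2%), beside 12.9%, and the pair of cores in 2, or 9.09%, beside 1.5%. The direct repeat with a spacing of 1 base occurred in 1 of 22 import peaks, or 4.55%, and in 0.294% of the other labelled peaks. The spacing was taken from the PAM16 match itself, so these shares are no comparison. ETS-type letters CCGGAAG occurred in 27.3% of import peaks and 19.4% of the others, with intervals that overlap.

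The other strings were as frequent in both sets or rare. GGGCGG, an SP-type box, occurred in 72.7% of import peaks and 70.9% of the others. AAGATGGCG, a YY1-type string, was found at TIMM50 alone, and GAGGAAGT, a PU.1-type string, at TIMM17B alone, each 4.55% beside 3.19% and 4.55%. TGACGTCA, the cyclic AMP response element, occurred in 0 of 22 import peaks, which allows a share of up to 13.6%, and in 2.73% of the others. GC content of the windows was close, with a median of 63.0% at import peaks and 64.7% at the others.

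**Figure D4:**
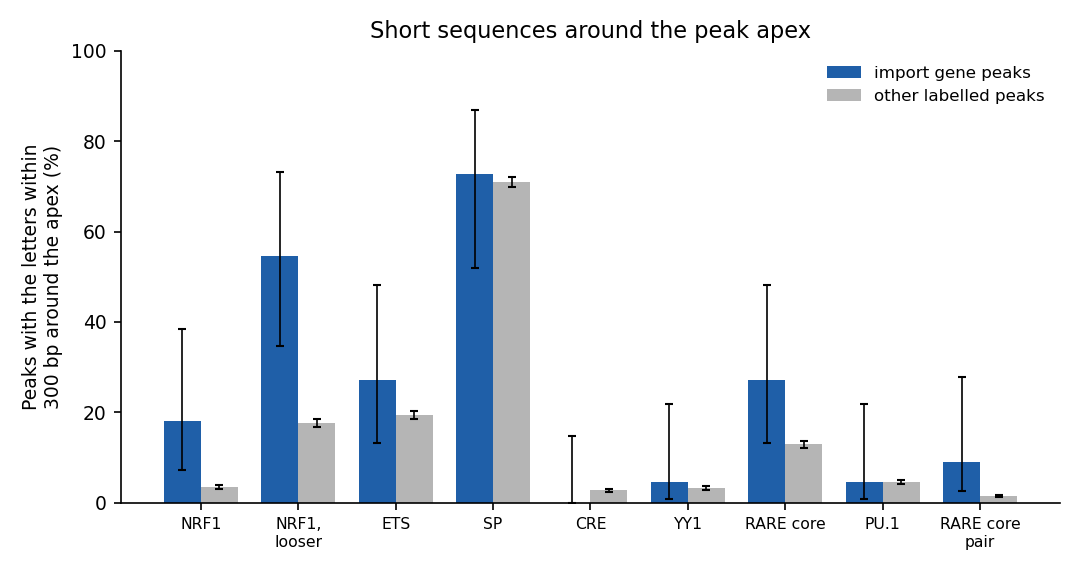
Share of peaks, in percent, with each short sequence in the 300 bp around the apex, for the 22 import gene peaks (blue) and the 7147 other labelled peaks (grey), with Wilson 95% intervals as error bars. For NRF1 in its looser and its strict form, and for the RARE core pair, the interval of the import peaks lies above that of the other labelled peaks. The pair was searched for after the data were seen and rests on 2 import peaks.

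The NRF1-type letters did not mark the high peaks. The 12 import peaks with them had a median height of 26 and a median width of 725.5 bp, and the 10 without had 32 and 1182 bp, with ranges of 16 to 73 and 20 to 82 in height that overlap almost entirely. TIMM44, GRPEL1, TIMM10 and TOMM70 were among the high peaks without such letters. Among the other labelled peaks the median height was 26 with and without them. In RefSeq promoters (GRCh38.p14, from 250 bases before to 50 after a start site), which do not depend on the peaks, 34 of the 37 import genes had an entry. CGCANGCG was in 13 of these 34, or 38.2% (23.9 to 54.96%), and in 14.3% of 15809 other protein-coding genes. It was in 11 of the 20 with a labelled peak and in 0 of the 6 without a peak at the start, which allows a share of up to 50%. The rest of the 13 were TIMM29 and TOMM20, whose starts lay under peaks with another label. Whether the letters go with the presence of a peak was not tested. CCGGAAG was in 16 of the 34, or 47.1% (31.45 to 63.26%), beside 14.2% of the other genes. This gap was wider than in the windows around the apex, and in these promoters wider than that of CGCANGCG. The sets are unlike, since the promoter shares are of genes with or without a peak and the apex shares of labelled peaks only. CCGGAAG was in 8 of the 20 with a labelled peak and in 4 of the 6 without a peak at the start. The latter were MTX2, PMPCB, TIMM23 and its copy TIMM23B. AGGTCA was in 9 of the 34, or 26.5%, beside 11.7%.

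Other nuclear genes for mitochondrial proteins and for ribosomes gave similar heights. The median height was 24 for the 34 labelled peaks of mitochondrial ribosomal protein genes (95% interval 19 to 30), 25 for the 49 of oxidative phosphorylation genes (23 to 34) and 24 for the 41 of cytosolic ribosomal protein genes (20 to 27), all within the interval of the import peaks. Median widths were 924, 980 and 757 bp in that order. The share of genes with a labelled peak was 42.3%, 51.1% and 46.5%, beside 59.5% for the import genes, with intervals that overlap that of the import genes. CGCANGCG occurred in 26.5%, 34.7% and 24.4% of these peaks.

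Among all protein-coding genes other than the 37, 29.8% had a labelled peak and 39.1% an apex within 1 kb of a start site. Of 26 further genes that work with the import machinery, 12 had a labelled peak, 4 lay under a peak with another label and 10 had none at the start. The highest under their own label were HSPD1, the chaperonin that folds imported proteins, with a height of 48 in a peak shared with its divergent cochaperone HSPE1, HSPA9, the Hsp70 of the motor, with 40, the outer membrane insertase MTCH2 with 39, and MICOS13, of the cristae junction complex, with 38. Under another label, IMMT, also of the cristae junction complex, had 45 (labelled MIR4779) and the protease HTRA2 had 44 (labelled AUP1), both above HSPA9. With HSPA9, a peak was present at the genes for the Hsp70, its tether TIMM44, both exchange factors and PAM16. DNAJC19, the J-protein of the motor, had none, and its nearest apex was 77.0 kb away. DNAJC15, also among the motor partners, had none either, with the nearest apex 645.5 kb away. Of the 6 other proteases of the pathway, 4 had no peak at the start, too few genes to set against the share of all genes.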

How the data were processed

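Cut&Run reads were trimmed with Trimmomatic, aligned to hg19 with Bowtie2, cleared of PCR duplicates (Samtools) and of blacklisted reads (Bedtools), and called with SEACR against paired controls (norm, union). Peaks reproducible across 2 replicates at an IDR below 0.05 were kept. Tool versions are not given in the sources used here. The authors deposited, for each peak, its width, a total signal summed over the peak and a largest signal, called height here, with the content of the signal columns taken from their values. Whether the norm setting rescaled the signal, and how replicates were combined, is not stated. Gene labels are those of the authors, from UCSC known genes at the apex. The list was assigned to the anti-PML::RARA antibody in zinc-treated cells from its name and its number of peaks. Other peak thresholds, apex limits and motif windows were tried as alternatives.

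Start sites came from GENCODE release 44 on GRCh37, the build of the files (0 peaks ran past a chromosome end). Symbols of 182 labelled peaks are not in it. The apex is the midpoint of the interval of largest signal. Percentiles are shares of other labelled peaks that are lower. Motif windows of 300 bp were centred on the apex. Members and lists were chosen with earlier results of these data known. Named were all 37 member genes, plus up to 4 of the highest further import genes, and others where a role or neighbour called for them. Shown sequences are those of the highest and widest peaks and of peaks with NRF1, RARE or ETS letters. Functions were tested on simulated data. Values were computed in Python 3.11.15 (pandas 2.3.3, numpy 2.4.6, scipy 1.17.1), sequences were read with pysam 0.24.0, and plots were drawn in matplotlib 3.10.9.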

Additional observations from a re-analysis of the deposited data

How the results depend on the processing

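No paired analysis was possible because both replicates share 1 value per peak, and for the same reason no replicate could be left out. The number of import genes with a labelled peak fell from 22 to 14 with peaks at or above the median height and to 12 at or above the median width, which shorten the list by construction. It was 31 with any apex within 1 kb of a start site or any peak over one, and 20 of 35 without TIMMDC1 and TOMM34. The height difference stayed positive under 9 of the 10 alternatives, at 0.11 to 0.27 on the log2 scale, and was -0.079 with total signal in place of height. The width difference stayed negative under all 9 alternatives, at -0.13 to -0.38. Those with chromosome 19 left out, or with the 9 peaks under another label or none added, were chosen after seeing the data. The share of import peaks with the apex close to a start was 81.8% within 250 bp, beside 76.1% of the other labelled peaks, because the limit is wider. The share with NRF1-type letters was 27.3% in 150 bp, beside 10.8%, and the share with ETS-type letters 50% in 600 bp, beside 25%.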
